A study of Mus musculus with 17 samples.

Results

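The transcripts described here are 10 secreted signals of inflammation, the chemokines Cxcl10, Cxcl9, Ccl5, Ccl3, Ccl4 and Cxcl2, the cytokines Il1b, Tnf and Il6, and Il1rn, the antagonist of the interleukin-1 receptor. They were taken by symbol from a table of 35321 gene symbols, and all 10 were found in it. The libraries are polyadenylated RNA of hematopoietic stem and progenitor cells, the immature blood-forming cells abbreviated HSPC, sorted from bone marrow of wild-type C57BL/6J mice. In 4 groups of 3 libraries each, the mice had been injected intraperitoneally with lipopolysaccharide (LPS, a component of the bacterial outer membrane), either alone or together with a blocking antibody to IL-10R, the receptor of interleukin-10, and marrow was taken at 24 h or 72 h. The fifth group, 5 libraries titled day 0, received phosphate-buffered saline (PBS). Amounts of 5 µg LPS and 100 µg antibody appear in the series text but 5 mg and 100 mg in the sample protocol, and neither was assumed. Sex, age, the gate used for sorting and any pooling of mice are not given in the sources used here, and no group given the antibody without LPS was analysed. Nothing in the labels says that libraries of a group came from separate animals, so p-values measure the spread between these libraries, which may be technical.

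Chemokines are small proteins that direct cell migration through G protein-coupled receptors. Cxcl9 and Cxcl10 are ligands of Cxcr3 and are classical products of interferon signalling, Ccl3, Ccl4 and Ccl5 attract monocytes and T cells, and Cxcl2 attracts neutrophils through Cxcr2. Interleukin-1 beta, tumour necrosis factor and interleukin-6 are the archetypal cytokines that LPS elicits from macrophages through Toll-like receptor 4, and interleukin-10 is known to restrain their production. In bone marrow, such cytokines act on progenitors and are also made by some of them.

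Sequences upstream of 3 members are shown because Cxcl10 and Cxcl9 were high in the same libraries and Ccl3 was the member that fell after LPS. Each is the 250 bases before the transcription start in RefSeq (GRCm38.p6), read 5′ to 3′ on the minus strand, on which all 3 genes lie. Windows were found for 8 of the 10 members, and none for Ccl4 and Ccl5. Capitals mark matches, on either strand, to an interferon-stimulated response element (ISRE, GAAANNGAAA), an AP-1 site (TGANTCA) or the NF-kB consensus. The Cxcl10 window is chr5:92348890-92349139, that of Cxcl9 is chr5:92328080-92328329 and that of Ccl3 is chr11:83649379-83649628.
Cxcl10: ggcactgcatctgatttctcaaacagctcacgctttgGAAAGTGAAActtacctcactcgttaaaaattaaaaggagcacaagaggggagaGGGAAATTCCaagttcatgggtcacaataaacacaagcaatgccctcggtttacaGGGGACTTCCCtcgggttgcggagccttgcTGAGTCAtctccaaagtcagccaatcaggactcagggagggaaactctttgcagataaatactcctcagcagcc
Cxcl9: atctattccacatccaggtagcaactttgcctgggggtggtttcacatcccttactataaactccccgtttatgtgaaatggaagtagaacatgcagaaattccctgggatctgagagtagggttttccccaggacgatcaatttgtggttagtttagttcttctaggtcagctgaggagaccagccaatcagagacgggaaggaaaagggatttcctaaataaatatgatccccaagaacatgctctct
Ccl3: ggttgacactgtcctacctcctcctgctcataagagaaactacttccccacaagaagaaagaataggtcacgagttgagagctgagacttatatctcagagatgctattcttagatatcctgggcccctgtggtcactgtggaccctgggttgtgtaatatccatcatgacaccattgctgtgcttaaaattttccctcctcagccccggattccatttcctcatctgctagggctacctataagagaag

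Counted from the start site, the Cxcl10 window held an ISRE match at -213 to -204, NF-kB matches at -159 to -150, -104 to -95 and -103 to -94, and an AP-1 match at -74 to -68. The NF-kB matches at -104 and -103 overlap and appear as 1 run of capitals. Neither the Cxcl9 nor the Ccl3 window held any of these letters, nor did those of Il1b and Tnf. NF-kB matches were also present before Cxcl2 and Il6, and AP-1 matches before Il6 and before 1 of 3 start sites of Il1rn. Of 32851 RefSeq windows of this length, 2.98% held the ISRE letters, 6.75% the AP-1 letters and 7.25% the NF-kB consensus. A match describes the sequence only. On the genome (GRCm38, GENCODE vM21) Cxcl10 occupies chr5:92346638-92348889 and Cxcl9 chr5:92321347-92328079, with 18558 bases between them. Ccl3 (chr11:83647844-83649355) and Ccl4 (chr11:83662584-83664683, plus strand) are separated by 13228 bases, and Ccl5 (chr11:83525778-83530518) lies on the same chromosome.

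Libraries held from 10516722 to 16006001 counts. Values are given as CPM, counts scaled to library size, with TMM factors that lay between 0.947 and 1.12 except for 0.799 in LPS library 1 at 24 h. A count of 3, taken as the floor, equals 0.172 to 0.280 CPM. Of 12 HSPC markers, 11 were at or above 1 CPM in every library. Their summed level ran from 1913 to 2831 CPM with PBS and from 1195 to 1418 CPM at 24 h after LPS. In bulk RNA, fewer cells of a type and less RNA per cell cannot be told apart. PBS library 2 stood apart, with 4308 CPM of 17 monocyte-macrophage markers and 1670 CPM of neutrophil markers, against 895 to 1554 and 199 to 426 CPM in the other PBS libraries. Both LPS-plus-antibody libraries numbered 1 also stood apart, as described below.

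Only Ccl5, Ccl3 and Tnf were at or above 1 CPM in all 17 libraries. Cxcl10 fell below 1 CPM in 2 libraries, Cxcl9 in 2 and Ccl4 in 1. The others were mostly below it, Il1rn in 11 libraries, Il1b in 12, Il6 in 14 and Cxcl2 in 16. Per kilobase of merged exon, a scale on which genes can be compared, Ccl3 had the highest PBS median at 26.9 CPM per kb (range 19.7 to 35.1). Ccl5 followed at 10.5 (5.12 to 12.8) and Ccl4 at 6.00 (3.99 to 10.4). The ranges of Ccl5 and Ccl4 overlapped, and Ccl3 lay above both. Tnf lay below Ccl4. Tnf (2.34 CPM per kb), Cxcl9 (2.04) and Cxcl10 (1.59) were next in order, each overlapping its neighbour, and Il1b, Il6 and Il1rn had medians of 0.181, 0.118 and 0.0905 CPM per kb. Merged exons of Cxcl10 include retained introns of annotated transcripts, which lowers its value on this scale. The order differed between groups. At 24 h after LPS alone, Ccl5 led with 33.1 CPM per kb (10.2 to 132.8), above the range of Ccl3 (3.99 to 6.41). At 72 h after LPS alone Ccl3 led again with 39.4 CPM per kb (19.0 to 67.0), followed by Ccl4 at 11.4 (4.77 to 16.1) and Ccl5 at 8.99 (8.98 to 22.3), and only the ranges of Ccl3 and Ccl4 were apart. With antibody the medians of Ccl5 and Ccl3 were 23.2 and 11.5 CPM per kb at 24 h and 13.2 and 16.2 at 72 h, with ranges that overlapped at both times.

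Differences were tested with edgeR's quasi-likelihood test over 14920 genes, of which 9 are members. Cxcl2 did not pass the filter on low counts. A member was called where the Benjamini-Hochberg adjusted p over all tested genes was below 0.05. At 24 h after LPS alone, 1 of 9 members was called against PBS, the lower Ccl3, where 37.6% of all genes were called. At 72 h after LPS alone, 0 of 9 were called by edgeR, where 0.0201% of genes were, and 0 members had an unadjusted p below 0.05. DESeq2 also called 0, but it gave no adjusted p for Cxcl9 and Cxcl10 in any comparison and so could not call them. With antibody at 24 h, 2 members were called against PBS, the higher Cxcl9 and the lower Ccl3 (24.2% of all genes). With antibody at 72 h, 3 were called, all higher (Cxcl10, Cxcl9 and Ccl5), beside 13.2% of all genes. The PBS libraries enter all 4 of these comparisons. With library number added to the fit as a block, 0 members were called against PBS with antibody at either time. Same-numbered PBS and antibody libraries did not all deviate together, with lowest correlations across genes of -0.09 at 24 h and 0.07 at 72 h. No treated library is numbered 4 or 5, so PBS libraries 4 and 5 carry no weight in the blocked comparisons.

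Between LPS with and without antibody, 0 of 9 members were called by edgeR at either time. The share of all genes called was 0% at 24 h, where 273 genes and 0 members had an unadjusted p below 0.05, and 15.1% at 72 h, where 5 members had one. DESeq2, which could not call Cxcl9 or Cxcl10, called 1 gene and 0 members at 24 h and 3 members at 72 h (Ccl5, Ccl3 and Il1rn). From 24 h to 72 h after LPS alone, Ccl3 and Ccl4 rose, 2 of 9 members beside 31.1% of all genes. With antibody, 0 members and 0% of all genes were called over the same interval, although 635 genes and 1 member, Ccl4, had an unadjusted p below 0.05, and DESeq2 called 2 genes, neither of them a member. The antibody effect differed between the times for 6.35% of all genes and for 0 members, 2 of which had an unadjusted p below 0.05. DESeq2 called Ccl3 there and gave no adjusted p for Cxcl9, Cxcl10 and Il6. Median log2 changes of the 9 members were 0.25, 0.00, 1.13 and 0.62 in the order of the PBS comparisons above, beside -0.03, -0.03, -0.00 and -0.00 for all genes. They were 0.74 and 2.72 for the antibody effect at 24 h and 72 h, beside -0.00 and 0.01. Between 24 h and 72 h they were -0.90 after LPS alone and 0.78 with antibody, beside 0.02 and 0.00, and 1.79 beside 0.01 for the difference of antibody effects. Without both antibody libraries numbered 1, the members' medians with antibody against PBS were 0.17 at 24 h and -0.77 at 72 h. Their medians for the antibody effect were then -0.53 and -0.74. Between 24 h and 72 h with antibody the median was -0.34, and for the difference of antibody effects 0.08.

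Cxcl10, which attracts activated T cells and natural killer cells, was measured at 3.58, 3.54, 1.61, 3.70 and 3.79 CPM with PBS. After LPS alone it stood at 9.27, 3.85 and 8.48 CPM at 24 h and at 9.53, 1.69 and 0.585 CPM at 72 h. With antibody it reached 55.1, 6.72 and 1.30 CPM at 24 h and 429, 3.74 and 0.849 CPM at 72 h. The group with antibody at 72 h therefore held both the highest value of all libraries, from 5098 counts, and 1 of the 2 values below 1 CPM. LPS library 3 at 72 h was the other. The highest library exceeded the next of its group 115-fold, and the other 2 were within or below the PBS range. Cxcl10 was called against PBS at 72 h with antibody (log2 change 5.48, SE 1.41, edgeR adjusted p = 0.0229), with 1 of 3 libraries above all PBS libraries. Without that library the log2 change was -0.50 (adjusted p = 0.807), and the call was also lost without PBS library 2, 3 or 5 (adjusted p = 0.0538, 0.0509 and 0.0516). The antibody effect at 72 h was 5.23 (SE 1.74, adjusted p = 0.0546) and -0.75 without the library. At 24 h with antibody the change against PBS was 2.71 (SE 1.34, adjusted p = 0.149). Exons of Cxcl10 share 133 bases with Art3 on the other strand, and strandedness is not given in the sources used here. Art3 was at 5.30 CPM in the library highest for Cxcl10 and at or below 0.7002 CPM in the others.

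Cxcl9, the other Cxcr3 ligand, followed the same libraries. It was at 6.16, 7.71, 4.30, 4.51 and 10.7 CPM with PBS, at 13.9, 5.42 and 20.9 CPM at 24 h after LPS alone and at 13.9, 2.62 and 3.66 CPM at 72 h. With antibody it measured 435, 18.04 and 0.407 CPM at 24 h and 774, 4.48 and 0.424 CPM at 72 h. Library 1 was highest and library 3 lowest in both antibody groups, and of all 17 libraries only those numbered 3 there were below 1 CPM. The change against PBS was 4.51 (SE 1.59, edgeR adjusted p = 0.0497) at 24 h and 5.29 (SE 1.63, adjusted p = 0.044) at 72 h. Without antibody library 1 it was 0.48 (adjusted p = 0.855) at 24 h and -1.48 (adjusted p = 0.572) at 72 h. Leaving out any 1 PBS library also ended both calls (adjusted p from 0.0706 to 0.0965), and so did leaving out antibody library 2 at 24 h (0.0726).

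Ccl5, a ligand of Ccr1 and Ccr3 made by T cells and many stimulated cells, was above 3 CPM everywhere. PBS libraries held 12.2, 11.96, 5.28, 10.1 and 4.91 CPM. At 24 h after LPS alone the values were 31.8, 9.75 and 128 CPM, and at 72 h 21.4, 8.62 and 8.63 CPM. With antibody they were 81.4, 22.3 and 4.47 CPM at 24 h and 367, 12.7 and 3.11 CPM at 72 h. In contrast to Cxcl9 and Cxcl10, the second highest library of all was one without antibody, LPS library 3 at 24 h. Against PBS, the 24 h change after LPS alone was 2.67 (SE 1.12, edgeR adjusted p = 0.0713), 1.22 without that library. Ccl5 was called at 72 h with antibody (3.84, SE 1.14, adjusted p = 0.0385), with 2 of 3 libraries above all PBS libraries. The change became -0.16 (adjusted p = 0.934) without library 1, and the call was lost without any 1 PBS library (adjusted p from 0.0551 to 0.0839).

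**Figure D1:**
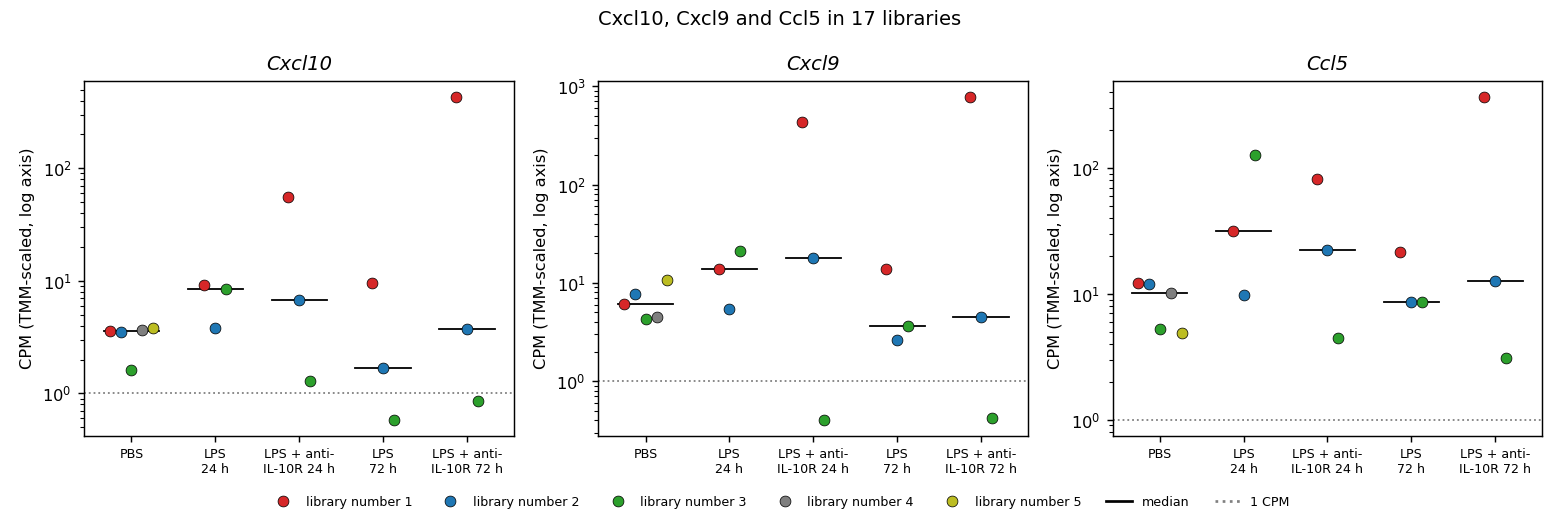
Cxcl10, Cxcl9 and Ccl5 in TMM-scaled CPM on a log axis, 1 point per library, coloured by library number, with the group median as a bar and a dotted line at 1 CPM. Antibody library 1 is the highest point of its group at both times for all 3 genes, up to 774 CPM for Cxcl9 at 72 h.

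The LPS-plus-antibody libraries numbered 1 were also highest for interferon-inducible genes, a list of 24 of which 23 were in the table and tested. Summed, these 23 were at 5839, 1248 and 912 CPM in the antibody libraries at 24 h and at 8513, 1066 and 918 CPM at 72 h. Libraries of the other groups lay between 1130 and 1618 CPM. Library 1 was the highest of its group for 22 of the 23 genes at 24 h and for 22 at 72 h. Gbp2, an interferon-induced GTPase, was at 914, 41.9 and 24.6 CPM at 24 h and at 1437, 25.0 and 19.9 CPM at 72 h, against 30.5 to 46.9 CPM with PBS. Against PBS at 72 h with antibody, 3 of 23 were called, beside 13.2% of all genes, and all 3 rose, Gbp2 (log2 change 3.75), Gbp5 (2.49) and Gbp3 (1.75). Without PBS library 2 only Gbp3 was called. The list's median change was 1.66, beside -0.00 for all genes. Without both antibody libraries numbered 1 that median was -0.59, with 1 gene higher (Gbp3, 0.77) and 1 lower (Irf1). Over all genes, 1164 were called in that fit. Ifng, the gene of interferon gamma, was at 0.280 and 1.77 CPM in the antibody libraries numbered 1 and at 0 to 0.458 CPM in the other 15. Ifnb1, that of interferon beta, was at 0 and 0.168 CPM there and at 0 in the others.

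Other measures moved with these libraries. Summed erythroid markers were at 2291 CPM in antibody library 1 at 24 h and 1278 CPM at 72 h, above all other libraries (65.5 to 992 CPM). Car1 (1111 and 702 CPM) and Car2 (875 and 482 CPM) made up most of these sums. Klf1 (92.6 and 39.7 CPM) was also above its PBS range (5.47 to 16.5 CPM). At 24 h, so were the libraries with LPS alone (41.6, 20.4 and 42.0 CPM) and antibody library 2 (27.5 CPM). The globin gene Hbb-bs was not above its PBS range (20.2 to 77.8 CPM) in the antibody libraries numbered 1, at 28.8 and 4.88 CPM. Summed megakaryocyte and platelet markers (279 and 282 CPM, mostly Itga2b at 251 and 229 CPM) were also highest there, with at most 243 CPM elsewhere. Basophil and mast cell markers were highest of all in library 1 at 24 h (740 CPM). Neutrophil markers were the lowest of all libraries there (103 and 61.7 CPM). Monocyte-macrophage markers summed to 1101 CPM at 24 h and 708 CPM at 72 h, within or below the range of the PBS group. T and NK cell markers summed to 119 and 73.3 CPM, the lowest of their groups. The largest of them, Nkg7, was at 59.0 and 35.9 CPM there, against 116 to 202 CPM in the other antibody libraries. Most other markers of that list, many of them low, were instead highest of their group in library 1. Gzmb was at 22.3, 9.53 and 1.54 CPM at 24 h and at 14.4, 3.27 and 1.34 CPM at 72 h. Ly6a, which encodes the stem cell marker Sca-1 and was singled out after its values were seen, was at 530 and 632 CPM, against 32.6 to 266 CPM in the other 15 libraries. The part of these measures in the chemokine values was not tested. Cxcl9, Cxcl10 and Ccl5 together made up 94.8% and 97.1% of the summed CPM of the 10 members in the antibody libraries numbered 1. In the other libraries this share ran from 24.1% to 92.0%. At 24 h it was 84.6%, 71.2% and 92.0% after LPS alone and 82.4% in antibody library 2.

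**Figure D2:**
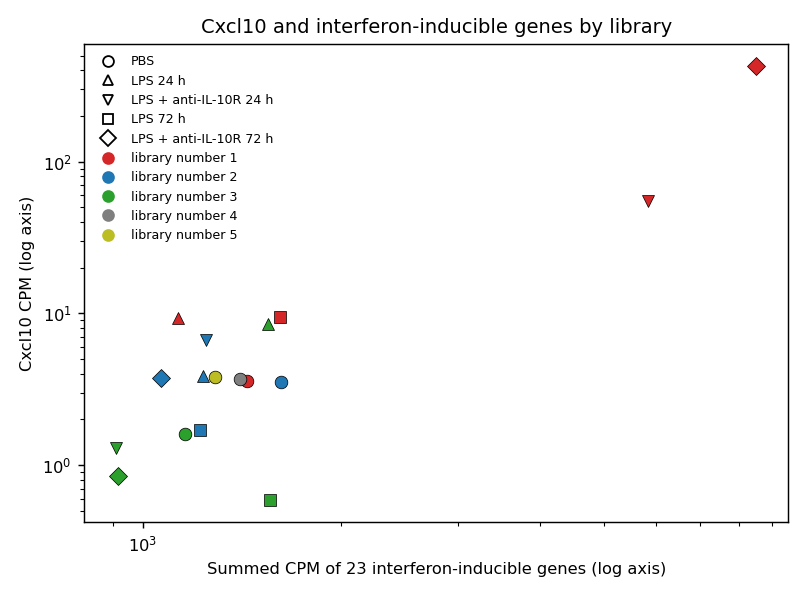
Cxcl10 CPM against the summed CPM of 23 interferon-inducible genes, both on log axes, 1 point per library, with shape for the group and colour for the library number. The antibody libraries numbered 1 lie apart at 5839 and 8513 CPM of the list, and the other 15 libraries lie between 912 and 1618 CPM.

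Ccl3, also named MIP-1 alpha, a ligand of Ccr1 that can restrain stem cell proliferation, showed a different pattern. With PBS it was at 22.7, 20.6, 18.01, 15.1 and 26.9 CPM, and at 24 h after LPS alone at 3.06, 3.43 and 4.91 CPM. By 72 h after LPS alone it was at 51.3, 30.2 and 14.6 CPM. With antibody it was at 12.04, 2.26 and 8.78 CPM at 24 h and at 12.4, 17.2 and 5.94 CPM at 72 h. Values at 24 h lay below every PBS library in both treated groups, whereas 2 of the 72 h LPS libraries lay above the PBS range and 1 just below it. Ccl3 fell at 24 h after LPS by 2.43 on the log2 scale (SE 0.513, edgeR adjusted p = 0.00242), where the mean was 3.80 ± 0.979 CPM (SD, n = 3) against 20.7 ± 4.50 CPM (SD, n = 5) with PBS. It remained called without each library in turn (log2 change -2.66 to -2.29). From 24 h to 72 h after LPS alone it rose by 3.06 (SE 0.553, adjusted p = 0.001) to 32.01 ± 18.4 CPM (SD, n = 3), and was called without each library in turn (2.54 to 3.39). These comparisons share the 24 h LPS libraries.

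With antibody Ccl3 was lower than with PBS at 24 h (log2 change -1.42, SE 0.480, edgeR adjusted p = 0.0427). That call was lost without PBS library 1, 2, 3 or 5 (adjusted p = 0.0673, 0.069, 0.0637 and 0.0898) and without antibody library 2 or 3 (0.154 and 0.0781). At 72 h with antibody the change against PBS was -0.81 (SE 0.466, adjusted p = 0.247). Set against LPS alone, the antibody groups differed by 1.01 (SE 0.535, adjusted p = 1) at 24 h and by -1.44 (SE 0.514, adjusted p = 0.07) at 72 h. The difference between these antibody effects was -2.45 (SE 0.742, adjusted p = 0.0601) and did not pass. It passed without antibody library 2 at 24 h (-2.88, adjusted p = 0.012) and without LPS library 3 at 72 h (-2.77, adjusted p = 0.0335).

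Ccl4, or MIP-1 beta, the neighbour of Ccl3 and an attractant of monocytes and T cells, was lower in level. Its PBS values were 3.96, 6.85, 3.90, 2.63 and 5.75 CPM. After LPS alone they were 1.67, 0.824 and 2.04 CPM at 24 h, each below all PBS libraries and the second below 1 CPM, and 10.6, 7.52 and 3.14 CPM at 72 h. With antibody Ccl4 was at 4.27, 1.02 and 1.30 CPM at 24 h and at 15.98, 4.11 and 1.27 CPM at 72 h, so 2 of 3 libraries at 24 h lay below the PBS range, while at 72 h 1 lay above, 1 within and 1 below it. The 24 h change after LPS alone was -1.60 (SE 0.712, edgeR adjusted p = 0.0878). With antibody at 24 h it was -1.05 (SE 0.684, adjusted p = 0.271), and -1.97 (adjusted p = 0.0307) without both antibody libraries numbered 1. Ccl4 rose from 24 h to 72 h after LPS alone by 2.22 (SE 0.773, adjusted p = 0.0391), higher in 3 of 3 libraries. This call was lost without any 1 of the 24 h LPS libraries or without LPS library 1 or 2 at 72 h (adjusted p from 0.0676 to 0.132). Over the same interval with antibody the change was 1.68 (SE 0.749, adjusted p = 0.918).

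**Figure D3:**
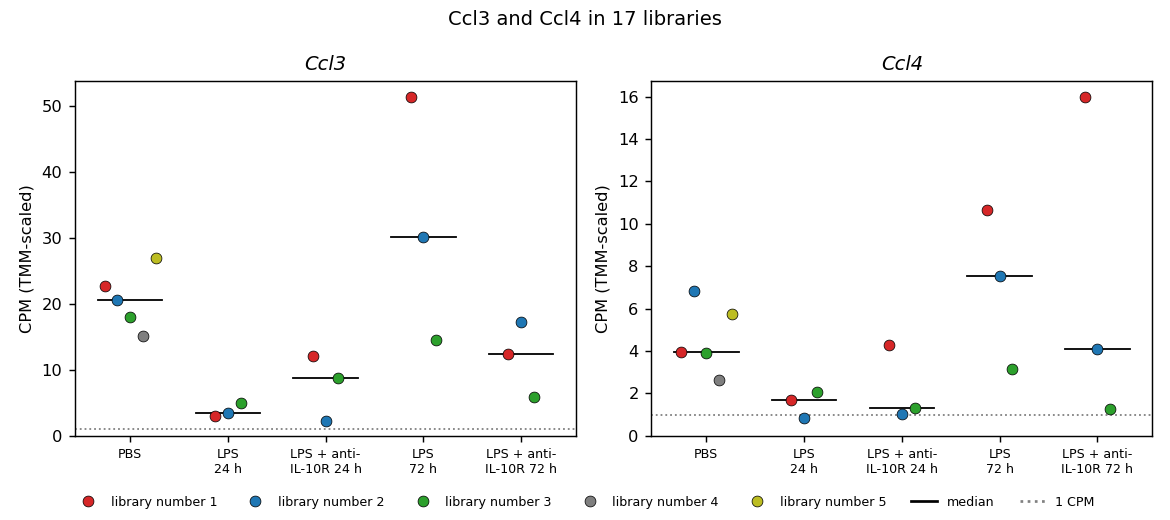
Ccl3 and Ccl4 in TMM-scaled CPM on linear axes, 1 point per library, coloured by library number, with the group median as a bar and a dotted line at 1 CPM. The 24 h LPS libraries of Ccl3 lie between 3.06 and 4.91 CPM, below all PBS libraries (15.1 to 26.9 CPM).

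Markers of several cell types also changed in the LPS groups, not all of them in the pattern of Ccl3 and Ccl4. At 24 h after LPS alone, where 37.6% of all genes were called, 8 of 12 HSPC markers fell (list median log2 change -1.05). So did 12 of 17 monocyte-macrophage markers (-3.45) and 7 of 9 dendritic cell markers (-2.45), while 1 dendritic cell marker rose. Summed monocyte-macrophage markers went from 895 to 4308 CPM with PBS to 518 to 887 CPM, and dendritic cell markers from 527 to 772 CPM to 294 to 465 CPM, with Cd209a at 0. The dendritic cell sum includes Flt3, which is also in the HSPC list and went from 344 to 567 CPM to 51.5 to 123 CPM. Bst2, another of its markers, went up from 60.9 to 132 CPM to 153 to 397 CPM. From 24 h to 72 h after LPS alone, 7 HSPC, 3 monocyte-macrophage and 6 dendritic cell markers rose and 1 monocyte-macrophage marker fell, beside 31.1% of all genes called. At 72 h the monocyte-macrophage sum was 1006 to 1891 CPM. The median change of that list against PBS was still -3.08, with 0 of 17 called beside 0.0201% of all genes. C1qa was at 2.02, 3.13 and 0.439 CPM, against 22.0 to 265 CPM with PBS. Summed B-lymphoid and plasma cell markers were at 406 to 1373 CPM with PBS, 74.6 to 99.7 CPM at 24 h and 152 to 424 CPM at 72 h after LPS alone. Stromal and endothelial markers were at 194 to 260, 84.9 to 134 and 249 to 285 CPM in the same groups. Most of that sum was Pecam1 (134 to 159, 68.6 to 98.9 and 185 to 205 CPM) and Pdgfrb. The part of all these markers in the Ccl3 and Ccl4 values was not tested.

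Cxcl2 was hardly detected, with 26 counts over all 17 libraries. It was listed at 0 in 8 libraries, and 15 held fewer than 3 counts. The only value at or above 1 CPM was 1.01 CPM (12 counts), in antibody library 1 at 72 h. The next was 0.420 CPM, in antibody library 1 at 24 h.

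Tnf, whose product activates NF-kB in responding cells, was low, and even among the PBS libraries. It ran at 3.83, 2.99, 4.13, 3.38 and 4.00 CPM with PBS, at 2.97, 1.99 and 3.19 CPM at 24 h after LPS alone and at 3.94, 2.03 and 2.05 CPM at 72 h. With antibody it was at 6.65, 4.30 and 2.60 CPM at 24 h and at 4.79, 5.70 and 1.77 CPM at 72 h. The range of every treated group overlapped that of PBS. The coefficient of variation among PBS libraries was 12.9%, the smallest of the members. It was 23.5% at 24 h and 41.1% at 72 h after LPS alone, and 45.0% and 50.4% with antibody. Tnf was called in 0 of 9 comparisons by edgeR or DESeq2, with 0 at an unadjusted p below 0.05. Changes against PBS ran from -0.46 to 0.30 on the log2 scale, and the antibody effect was 0.74 (SE 0.414, edgeR adjusted p = 1) at 24 h and 0.61 (SE 0.419, adjusted p = 0.329) at 72 h.

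Il1b, the fever-inducing cytokine released after inflammasome activation, was below 1 CPM in 12 libraries. PBS library 2 held the highest value, 3.70 CPM, against 0.126 to 0.351 CPM in the other 4. LPS libraries were at 0.742, 0.206 and 1.08 CPM at 24 h and at 0.275, 0.507 and 0.585 CPM at 72 h. With antibody they were at 2.38, 0.703 and 0 CPM at 24 h and 1.68, 1.12 and 0 CPM at 72 h, so library 1 was again highest and library 3 was listed at 0. The change at 24 h after LPS alone was -0.44 (SE 1.17, edgeR adjusted p = 0.794) and 1.31 (adjusted p = 0.365) without PBS library 2, the one that stood apart in monocyte-macrophage and neutrophil markers. Neither value was called. Exons of Il1b share 25 bases with Il1bos on the other strand, which was at 0 to 1.40 CPM.

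Il6, a cytokine that drives the acute phase response and myeloid output, was at or above 1 CPM in 3 libraries, each numbered 1. These were LPS library 1 at 24 h (1.21 CPM) and antibody library 1 at 24 h (1.40 CPM, 20 counts) and at 72 h (1.26 CPM). PBS libraries held 0.377, 0.787, 0.287, 0.188 and 0 CPM, the other 24 h libraries 0.618 and 0.702 CPM with LPS alone and 0.703 and 0 CPM with antibody. At 72 h after LPS alone the values were 0, 0.169 and 0 CPM, all below the floor, and antibody libraries 2 and 3 were at 0. A change from 24 h to 72 h after LPS alone had an unadjusted p below 0.05 but an edgeR adjusted p of 0.0957.

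Il1rn, which blocks the interleukin-1 receptor, was at 0.565, 2.204, 0.459, 0.501 and 0.140 CPM with PBS. LPS alone gave 0.371, 0.549 and 1.72 CPM at 24 h and 0.0916, 0.338 and 0.512 CPM at 72 h. With antibody the values were 4.20, 1.09 and 0.650 CPM at 24 h and 9.67, 0.187 and 1.13 CPM at 72 h. The highest value of each antibody group was in library 1, and 11 libraries lay below 1 CPM. The antibody effect at 72 h was 3.47 (SE 1.24, edgeR adjusted p = 0.07), and 1.10 (adjusted p = 0.586) without antibody library 1.

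**Figure D4:**
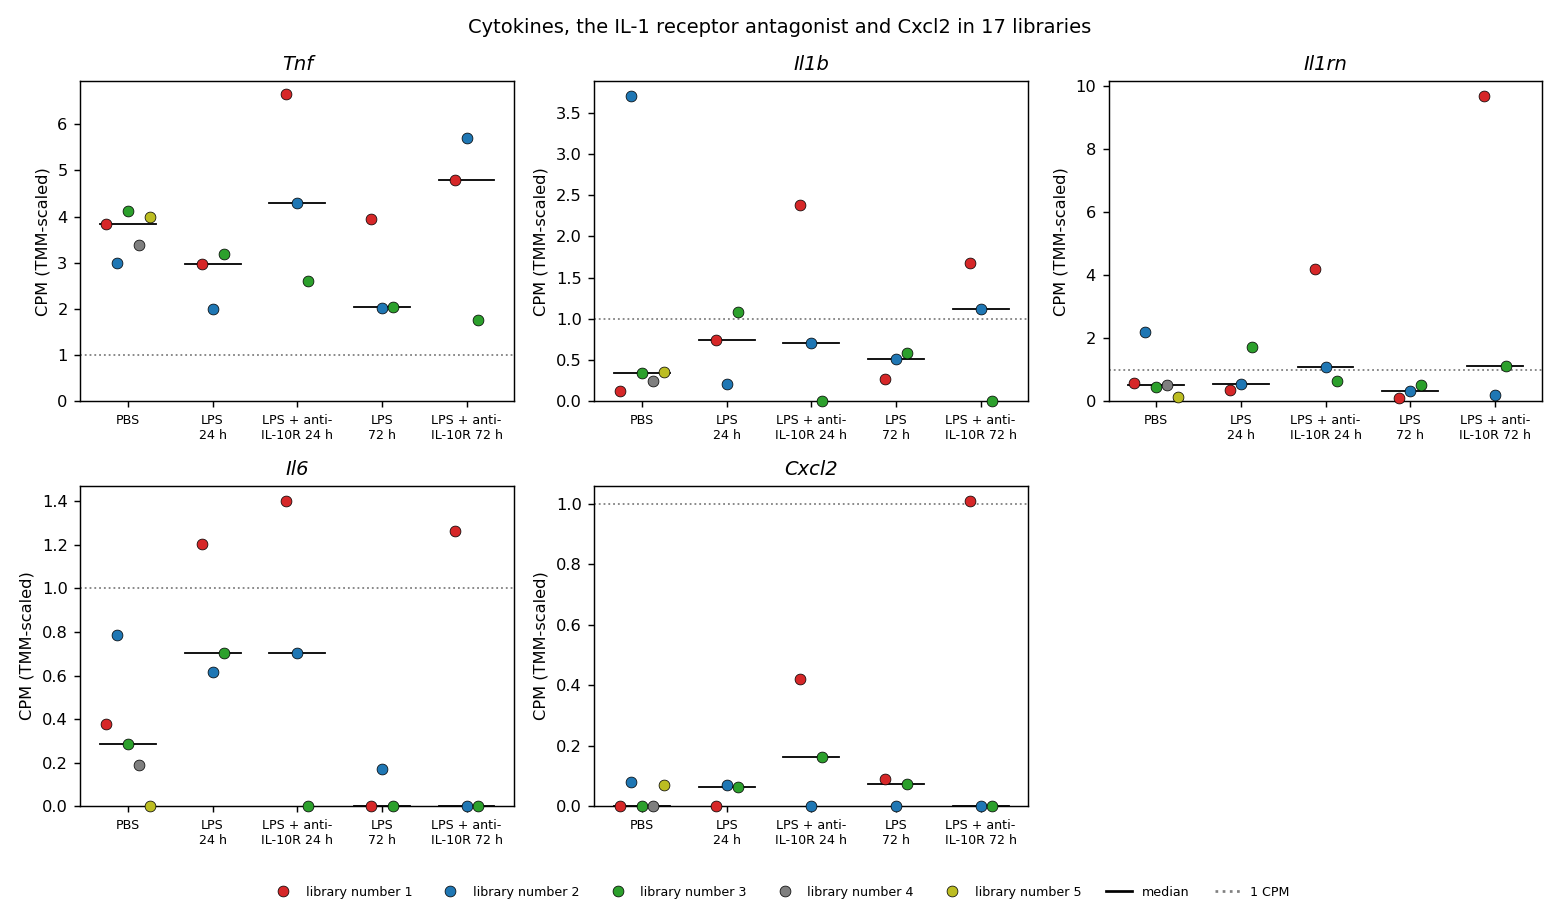
Tnf, Il1b, Il1rn, Il6 and Cxcl2 in TMM-scaled CPM on linear axes, 1 point per library, coloured by library number, with the group median as a bar and a dotted line at 1 CPM. Tnf stays above the line in all 17 libraries, whereas Il6 crosses it in 3 and Cxcl2 in 1.

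**Figure D5:**
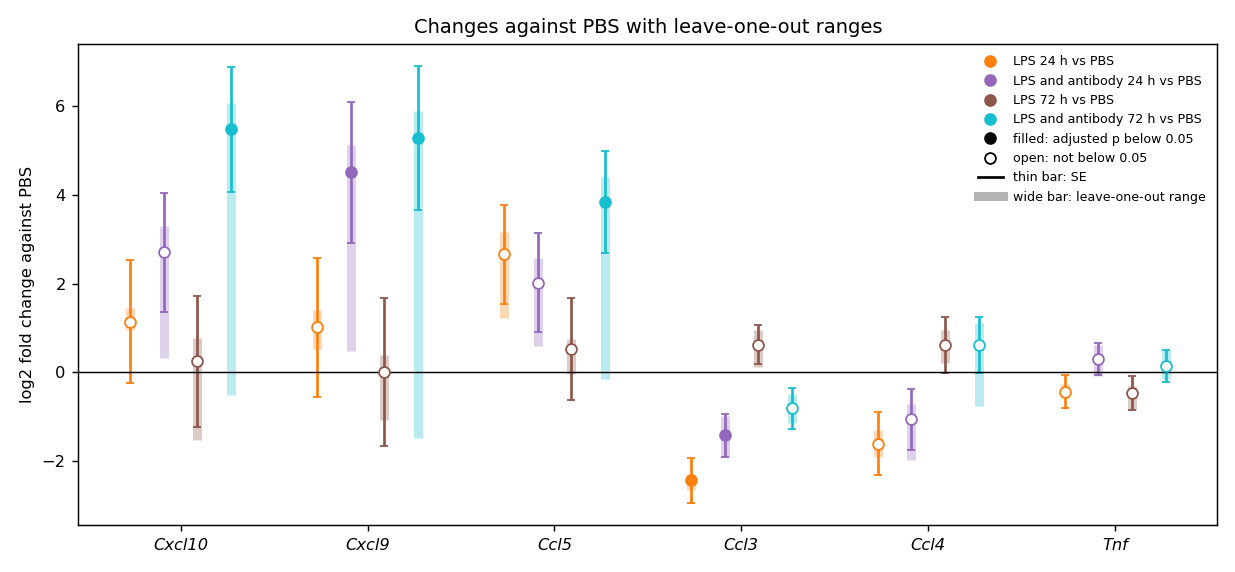
Log2 fold changes of 6 members against PBS in 4 comparisons, with thin bars for the SE, wide bars for the range over fits that leave out 1 library, and filled points for adjusted p below 0.05. For Cxcl10, Cxcl9 and Ccl5 at 72 h with antibody the wide bars cross 0, and for Ccl3 at 24 h after LPS alone the wide bar stays between -2.66 and -2.29.

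Other genes of the same systems are given as lists. Among 13 chemokines of the CXC, CX3C and XC classes in the table only 6 were tested. Their counts at 24 h after LPS alone stand beside the 37.6% of all genes called there. Of the 6, 2 fell, the platelet chemokine Ppbp (log2 change -3.49) and the membrane-bound Cx3cl1 (-2.20), with a list median of -1.91 beside -0.03 for all genes. Without PBS library 2 only Cx3cl1 was called. With antibody at 24 h the platelet genes Ppbp (-5.17) and Pf4 (-2.78) fell, Ppbp with adjusted p = 0.0582 without both libraries numbered 1. In the PBS group Ppbp ranged from 0.126 to 14.95 CPM, highest in library 2, and without it Pf4 alone was called at 24 h with antibody. Of 17 further CC chemokines 5 were tested. Ccl27a, an attractant of skin-homing T cells, fell at 24 h after LPS alone (-0.85) and rose from 24 h to 72 h (1.20), as did the myeloid chemokine Ccl9 (2.41). Ccl9 was at 304, 559 and 330 CPM at 72 h after LPS alone against 95.2 to 154 CPM with PBS. At 72 h Ccl22, the macrophage-derived ligand of Ccr4, was called higher and Ccl27a lower (-1.19) with antibody than without. Ccl22 was at 34.7, 0.467 and 0 CPM with antibody and at 0.0916, 0 and 0 CPM without, so its call rests on library 1 (adjusted p = 0.521 without both antibody libraries numbered 1, where Ccl27a had 0.0653). At 24 h with antibody Ccl22 was at 13.9, 1.87 and 0 CPM, again highest in library 1.

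Of 13 tested further cytokines, 8 changed at 24 h after LPS alone, 2 higher and 6 lower (median -1.12), beside 37.6% of all genes. Il12a, a subunit of interleukin-12, fell from 43.4 to 79.8 CPM with PBS to 8.99, 13.1 and 9.89 CPM (log2 change -2.56, SE 0.351, edgeR adjusted p = 0.000451). Ltb, which encodes lymphotoxin beta, fell by 2.36 and the inflammasome substrate Il18 by 2.32 on the log2 scale. Il12b, the other subunit, was listed at 0 in all 3 LPS libraries and at 0.188 to 1.10 CPM with PBS. From 24 h to 72 h after LPS alone Ltb (2.54), Il12a (2.38) and Il15 (1.23) rose and Mif, a constitutively made cytokine, fell (-1.31). With antibody at 24 h, Il18 (-2.55), Il12a (-2.21), Ltb (-1.55) and Il15 (-1.13) fell against PBS, and 5 of 13 were called in all, beside 24.2% of all genes. At 72 h with antibody 5 of 13 were called, beside 13.2% of all genes. Il18 (-1.87), Ltb (-1.66) and Il12a (-1.37) were among 4 lower, and Lif, a cytokine of the interleukin-6 family, was the only one higher (2.88). Lif was at 12.4, 0.467 and 0.707 CPM there, and its change was -0.00 without both libraries numbered 1. Without PBS library 2, Il18, Ltb and Il12a were called and Lif was not. Without both libraries numbered 1 only Ltb was called of the 13 (-1.84, adjusted p = 0.0324), beside 1164 of all genes. Ltb was also lower with antibody than with LPS alone at 72 h (-1.83), where Il12a was lower (-1.19) and Lif higher (3.39), neither of them called without both libraries numbered 1 (-0.88, adjusted p = 0.133, and 0.53, adjusted p = 0.69). The antibody effect on Ltb differed between the times (-2.65, SE 0.593, adjusted p = 0.0188), but not past the threshold without both libraries numbered 1 (-2.60, adjusted p = 0.057).

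All 12 receptors of the members were tested. At 24 h after LPS alone 3 of 12 fell (37.6% of all genes were called), Ccr3 (log2 change -6.04), Cxcr3 (-1.95) and Il1r1 (-1.21), and the list median was -0.19. Ccr3, known from eosinophils, ranged from 5.21 to 76.1 CPM among PBS libraries and was highest in library 2. With antibody at 24 h, Ccr3 (-6.52) and Cxcr3 (-2.36) fell, while Ccr1 (2.11), the receptor of Ccl3 and Ccl5, and the decoy receptor Il1r2 (2.03) rose. At 72 h with antibody Ccr1 (2.21) and Il1r2 (1.68) rose and Cxcr3 (-1.89) fell, and of these Ccr1 alone was called without PBS library 2. Ccr1 was at 25.1, 24.5 and 3.58 CPM at 24 h and at 31.7, 20.3 and 5.23 CPM at 72 h with antibody, against 1.75 to 9.29 CPM with PBS, so libraries 1 and 2 were both above the PBS range. Neither Il1r2 at either time nor Cxcr3 at 72 h was called without both libraries numbered 1 (adjusted p = 0.0796, 0.111 and 0.107), nor was Ccr1 (1.80, adjusted p = 0.0808, at 24 h and 1.66, adjusted p = 0.146, at 72 h). It was also higher with antibody than with LPS alone at 72 h (2.47), and 1.93 (adjusted p = 0.149) without both libraries numbered 1. From 24 h to 72 h after LPS alone Il6st (1.57) and Il6ra (1.08), the chains of the interleukin-6 receptor, rose.

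Genes of cytokine release and mRNA decay, 13 of 13 tested, included 5 that fell and 1 that rose at 24 h after LPS alone (median -0.63), beside 37.6% of all genes called. The inflammasome sensor Nlrp3 fell by 2.13, Zfp36, which promotes decay of Tnf and chemokine mRNA, by 1.83, Nfkbiz by 1.34 and the endonuclease gene Zc3h12a by 0.66 on the log2 scale. From 24 h to 72 h those 4 rose, by 2.81, 1.96, 1.13 and 0.54. Zfp36 was at 118 to 163 CPM with PBS, at 33.3, 38.9 and 45.9 CPM at 24 h after LPS alone and at 264, 112 and 85.9 CPM at 72 h. With antibody at 24 h Zfp36 (-1.20) and Nfkbiz (-0.88) fell, Nfkbiz not without PBS library 2, and at 72 h Zfp36 (-0.96) fell and Casp4 (0.84) rose. Neither 72 h call held without PBS library 2, nor without both libraries numbered 1 (adjusted p = 0.109 for Zfp36, and a Casp4 change of 0.34 with adjusted p = 0.26). Casp4 was at 56.2, 21.1 and 27.01 CPM there. Zfp36 (-1.09) and Pycard (-0.58) were lower with antibody than with LPS alone at 72 h, but not called without both libraries numbered 1 (adjusted p = 0.0951 and 0.096). The antibody effect on Zfp36 differed between the times (-1.72, adjusted p = 0.043). Without both libraries numbered 1 this adjusted p was 0.119. Among interferon-inducible genes, Irf8, a regulator of monocyte and dendritic cell development, fell at 24 h after LPS alone (-0.99, not called without PBS library 2) and rose by 72 h (1.60). It was lower with antibody than with LPS alone at 72 h (-1.47, and -1.39 with adjusted p = 0.0526 without both libraries numbered 1), and Gbp3 rose at 24 h with antibody (1.28, not called without PBS library 2).

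Likeness across the 17 libraries was measured as Pearson's r of log2 CPM, a description without a test, since libraries share groups and the highest values sit in the same libraries. Genes most like Cxcl10 were the interferon-inducible GTPase genes Igtp (r = 0.952), Ifi47 (0.952) and Tgtp1 (0.952), then Maff (0.947) and Tgtp2 (0.945). Over the 15 libraries without both antibody libraries numbered 1 these values were 0.906, 0.864, 0.873, 0.795 and 0.849. Tgtp1 and Tgtp2 are near-identical copies between which reads may be split. For Ccl5 the genes were Acod1 (0.925), Osm (0.915), Gm13822 (0.913), Oasl1 (0.903) and Zbp1 (0.901). Ccl3 was most like Pnrc1 (0.960), Mmp15 (0.955), Cnn3 (0.955), Calcoco1 (0.951) and Etfbkmt (0.950), all at or above 0.954 over the 15 libraries. Il1b was nearest to Atp6v0a1 (0.836), Cetn4 (0.816), Gm49339 (0.798), Bcl2a1d (0.797) and Bcl2a1b (0.792), and Tnf to St14 (0.879), AA986860 (0.857), Srxn1 (0.846), Llgl2 (0.842) and Dnaja4 (0.826). Spearman's rho for the first gene of each was 0.941, 0.779, 0.963, 0.711 and 0.873 in the same order of members. Among the members, Cxcl10 and Cxcl9 had r = 0.932 (0.815 over 15 libraries), Cxcl10 and Ccl5 0.894 (0.756), and Ccl3 and Ccl4 0.805 (0.922). Cxcl10 and Ccl3 had r = -0.06 (-0.17 over 15 libraries).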

How the data were processed

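The authors deposited 1 table of raw counts, whole numbers per gene symbol in 17 libraries. HISAT2 2.2.0, featureCounts 2.1.1, R 4.3.2, DESeq2 and the build GRCm38 are named per the submitters' processing notes; the annotation, strandedness and handling of multi-mapped reads are not given in the sources used here. Groups and replicate numbers came from sample titles. The analysis used R 4.3.3 with edgeR 4.0.16: filterByExpr (minimum count 10, minimum total 15; 14920 genes with 99.9% of counts), TMM factors and the quasi-likelihood test in 1 fit of all 17 libraries, with Benjamini-Hochberg adjustment within each of 9 comparisons. SEs are the absolute change over the square root of F. The fit was tested on simulated data. Correlations used log2 CPM with a prior count of 2. Names of libraries take 3 styles (PBS, those of number 1 at 24 h, all others); the sources used here do not say whether these are batches, and for PBS such a batch and the group cannot be told apart.

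All 10 members were named. Genes of other lists were named where called, at most the 4 with the largest change per list and comparison, and 5 most correlated genes were named for Cxcl10, Ccl5, Ccl3, Il1b and Tnf. The members and lists were chosen with earlier results of these data known. Same-numbered PBS and 24 h LPS libraries deviated together (correlations 0.191, 0.188 and 0.158 across genes), so these groups met the rule that each exceed 0.1. That rule was applied to the data, and the labels give no pairing. The block changed no count of members called between these groups. In the other group pairs not every correlation passed, and they ran from -0.415 to 0.723. Alternatives were DESeq2 size factors, upper-quartile factors, no filter, DESeq2 1.42.0, the compared groups only, a replicate block and leaving out libraries. The highest correlation between libraries was 0.990 and 0 columns were identical. There were 0 unmatched columns.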

Additional observations from a re-analysis of the deposited data

Results flagged for a closer look

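Within the PBS group, 3 values lay far from the other 4 libraries by Dixon's criterion, which flags about 1 in 20 groups by chance. Cxcl10 was at 1.61 CPM in PBS library 3, below the 3.54 to 3.79 CPM of the others. Il1b was at 3.70 CPM and Il1rn at 2.204 CPM in PBS library 2, above the others (at most 0.351 and 0.565 CPM). PBS library 2 also had the highest sums of monocyte-macrophage markers (4308 CPM) and neutrophil markers (1670 CPM) of that group, and their part in the Il1b and Il1rn values was not tested.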

How the results depend on the processing

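Counts of members called moved as follows. With only the compared groups in the fit, 4 members were called for LPS at 24 h against PBS (Cxcl10, Ccl5, Ccl3 and Ccl4) and 1 for antibody at 72 h against PBS. DESeq2 called 3 and 1 there, 1 for antibody at 24 h against PBS, 3 for the antibody effect at 72 h and 1 for its difference between the times. It gave no adjusted p for Cxcl9 and Cxcl10 in any comparison, nor for Il6 in the difference of antibody effects. Upper-quartile factors shifted the all-gene median by -0.13 (log2) at most and left 1 for antibody at 24 h against PBS. With the replicate block, in which PBS libraries 4 and 5 carry no weight, 0 were called for antibody at 24 h and 0 at 72 h against PBS. The block changed no other count. For antibody at 24 h and 72 h against PBS, leaving out 1 library gave 0 to 1 and 0 to 4 calls (4 with Il1rn, without antibody library 2). It gave 1 to 2 for LPS at 24 h against PBS, 1 to 2 for 72 h against 24 h after LPS, 0 to 2 for the antibody effect at 72 h and 0 to 1 for its difference between the times. Leaving out both antibody libraries numbered 1, chosen after seeing the data, gave 0 for antibody at 72 h against PBS.

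Of 81 member results, 44 changed sign in some alternative. Among results called in some setting, direction reversed in 2 comparisons at 72 h. Without antibody library 1, the log2 changes against PBS were -0.50 (Cxcl10), -1.48 (Cxcl9), -0.16 (Ccl5) and -0.12 (Il1rn). Their highest values with 1 library left out were 6.08, 5.89, 4.42 and 3.09. Without both libraries numbered 1 they were -0.50, -1.45, -0.16 and -0.11. The antibody effects on Cxcl10, Cxcl9 and Ccl5 were -0.75, -1.47 and -0.67 without library 1, at most 7.0005, 6.35 and 3.89 with another library left out, and -0.74, -1.44 and -0.67 without both. Ccl3 at 24 h after LPS against PBS and from 24 h to 72 h after LPS kept its direction and call in each alternative run.

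Counts over all genes moved by more than 1.5 times as follows. LPS at 72 h against PBS gave 0 (block), 99 (compared groups only) and 178 (DESeq2) against 3. The block gave 1721 for antibody at 24 h against PBS, 374 at 72 h and 333 for the difference of antibody effects, for which no filter gave 617, the compared groups 286, DESeq2 1673 and the fit without both libraries numbered 1 336. That fit gave 1164 for antibody at 72 h against PBS, and the compared groups 1123 for the antibody effect at 72 h. Leaving out 1 library gave 3361 to 5443 for LPS at 24 h against PBS (lowest without LPS library 1), 0 to 3 for LPS at 72 h, 877 to 3420 for antibody at 24 h (lowest without antibody library 2) and 583 to 2066 at 72 h (lowest without antibody library 3, 693 without library 1). It gave 769 to 2279 for the antibody effect at 72 h (lowest without LPS library 1) and 231 to 1544 for the difference of antibody effects (lowest without LPS library 1 at 72 h, highest without antibody library 2 at 24 h). In 2 of 10 pairs of groups every library correlated best with its own number. The causes of these shifts were not tested. Low counts limit Il1b, Il6, Il1rn and Cxcl2.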
